A study of Mus musculus with 16 samples.

Results

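The nuclear-encoded genes of the mitochondrial respiratory chain were followed through the neuronal differentiation of mouse embryonic stem (ES) cells with and without Taf4a, which encodes a subunit of the transcription factor TFIID. They were taken by name: gene symbols starting with Nduf followed by a, b, c, s or v, with Cox4 to Cox8, with Uqcr or with Atp5, and the symbols Sdha to Sdhd. A pseudogene named with -ps was left out. The rule gave 91 of the 27807 genes in the table and used no measured value. Of these, 86 reached a mean of at least 10 normalised counts over all libraries and were tested. The members not tested were Cox6a2, Cox8b, Cox8c and Cox7b2, isoforms known from muscle or testis, and Atp5l2, which the annotation calls a pseudogene. Their highest values in any library were 6.4 normalised counts for Cox6a2, 1.1 for Cox8b, 12.8 for Cox8c, 34.3 for Cox7b2 and 3 reads for Atp5l2.

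The respiratory chain passes electrons from NADH (complex I) and succinate (complex II) through complex III to oxygen at complex IV, and the proton gradient that complexes I, III and IV build drives the ATP synthase. Most subunits are encoded in the nucleus, and a few core ones are encoded in the mitochondrial genome, so assembly draws on both. Pluripotent cells are known for a high rate of glycolysis and neurons for a strong dependence on respiration. By name the 86 tested genes held 36 subunits of complex I, 4 complex I assembly factors, 4 subunits of complex II, 8 of complex III, 14 of complex IV and 15 of the ATP synthase. Ndufa4 and its paralogue Ndufa4l2 were kept apart, because Ndufa4 is bound to complex IV despite its name. The remaining names were Atp5s and Atp5sl, which are not structural subunits of the enzyme, and Cox4nb, a neighbour of Cox4i1 that encodes no respiratory subunit.

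Polyadenylated RNA was sequenced in 16 libraries, 2 for each of 8 groups. WT (Taf4+/+) and Taf4a-/- cells were each represented by 2 independent lines, and the null allele lacks exons 11 and 12 of Taf4a in every cell. Each genotype was sampled as ES cells grown on inactivated fibroblast feeders, as embryoid bodies on day 4 before retinoic acid (EB4), after the first day of retinoic acid (EB5) and on day 8 (EB8). Library depth was 22442118 to 40711826 reads, of which 198990 to 465912 fell on the members. Every ES library was deeper than every embryoid body library, so stage and depth cannot be told apart. The ES and embryoid body libraries may also be separate sequencing runs, and stage could then not be told apart from run. P-values cover the spread between the 2 libraries of a group. In bulk RNA, fewer cells of a type and less RNA per cell cannot be told apart.

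The labels and the libraries were checked first. Taf4a held 1591 to 1960 normalised counts in WT and 1973 to 2400 in Taf4a-/- libraries, with adjusted p (limma) of 0.194 to 0.524. One count per gene does not resolve the 2 deleted exons, so this count checks nothing about the deletion. The labels call the EB8 libraries of both genotypes neural precursor cells. The marker lists differed at EB8, where 7 of 8 markers of pluripotent cells were higher in Taf4a-/- and 6 of 7 tested markers of neural progenitors and 6 of 6 of neurons were lower. The summed progenitor markers were at 29944 to 32926 normalised counts in WT EB8 and 4805 to 4890 in Taf4a-/- EB8, against 16993 to 22061 and 1795 to 2296 for the neuronal markers. The summed pluripotency markers were at 1471 to 1923 in WT and 26694 to 29602 in Taf4a-/- EB8. No feeder marker of 6 tested passed between genotypes at any stage, although their sum in ES libraries was 1033 to 2650 in WT and 209 to 494 in Taf4a-/-. In ES cells no tested gene at all passed between genotypes, so the feeder result there is not informative. Of the other lists, 1 of 3 tested visceral endoderm markers and 2 of 3 tested muscle markers were lower in Taf4a-/- EB8, and 4 of 5 germ line markers were higher. The part of these cell type differences in the results that follow was not tested.

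Libraries also stood apart by chromosome. The median gene on the X chromosome was 0.35 to 0.54 above its mean over all libraries, on the log2 scale, in the second WT ES library and in the second Taf4a-/- library of each stage. The median of chromosome 8 was 0.397 to 0.406 in the first WT library of each embryoid body stage, and that of chromosome 11 was 0.18 to 0.28 in the first Taf4a-/- library of each stage. Members on these chromosomes moved with them, as the plot of chromosomes 8, 11 and X shows: Ndufa1, Cox7b and Ndufb11 lie on X, Cox4i1, Cox4nb, Ndufa13 and Ndufb7 on 8, and Atp5g1, Atp5h, Uqcr10 and Uqcrq on 11. Ndufa1, the X-linked accessory subunit of complex I, held 1047.6 and 2514.6 normalised counts in the WT ES libraries. In Taf4a-/- EB8 it held 736.4 and 1651.1.

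**Figure D1:**
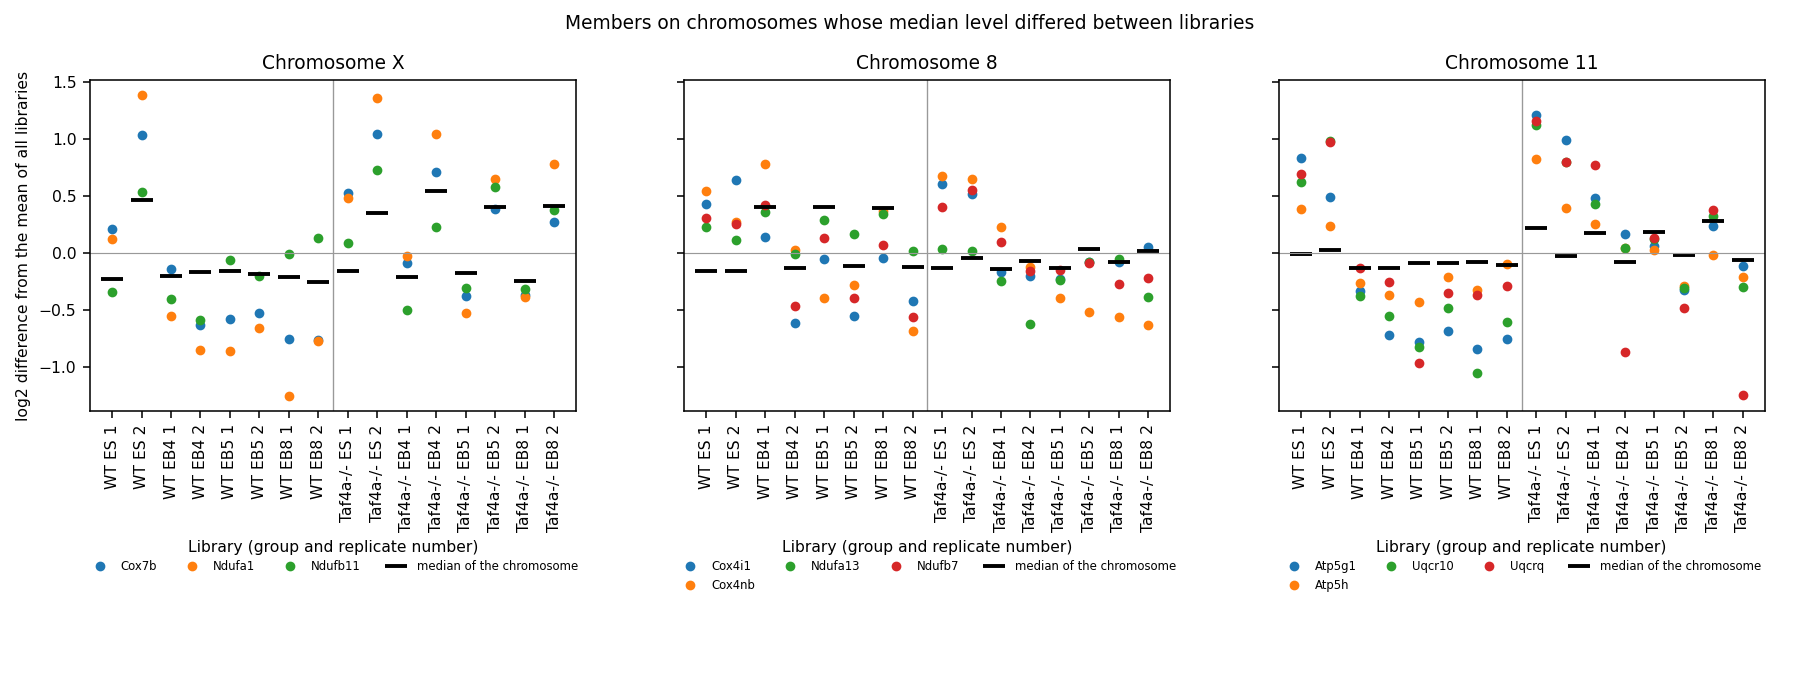
Members on chromosomes X, 8 and 11 in each of the 16 libraries; each point is 1 member, the vertical axis is the log2 difference of its normalised count from its mean over all libraries, and the black bar is the median of all tested genes on that chromosome. The X medians of the second WT ES library and of the second Taf4a-/- libraries are raised by 0.35 to 0.54, and the members there lie with them.

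Promoters are shown for 3 of the members called higher in Taf4a-/- EB8 and for 1 that fell in both genotypes. The sequences are the 250 bases before the RefSeq start in GRCm38.p6, read on the strand of the gene, and capitals mark a motif. Cox7a1 (chr7:30183921-30184170, plus strand) and Atp5g1 (chr11:96075632-96075881, minus strand), both higher in Taf4a-/- EB8, hold none of the motifs marked. Ndufa11 (chr17:56717512-56717761, plus strand), also higher there, holds the CRE motif TGACGTCA, which begins 158 bases before the start, and the NRF1 motif GCGCATGCG on both strands, beginning at 60 and 59 bases. Atp5h (chr11:115419920-115420169, minus strand), which fell from ES to EB8 in both genotypes, holds the ETS motif on the other strand 39 bases before the start.
Cox7a1: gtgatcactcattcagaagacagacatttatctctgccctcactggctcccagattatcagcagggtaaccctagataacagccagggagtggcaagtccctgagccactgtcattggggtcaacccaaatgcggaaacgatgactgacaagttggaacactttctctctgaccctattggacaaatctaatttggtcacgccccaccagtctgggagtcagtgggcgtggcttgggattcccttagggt
Atp5g1: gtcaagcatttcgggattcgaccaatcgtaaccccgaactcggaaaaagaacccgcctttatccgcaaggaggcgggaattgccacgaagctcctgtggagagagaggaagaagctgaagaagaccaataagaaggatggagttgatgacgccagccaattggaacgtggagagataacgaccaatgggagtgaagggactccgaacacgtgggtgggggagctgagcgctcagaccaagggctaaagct
Ndufa11: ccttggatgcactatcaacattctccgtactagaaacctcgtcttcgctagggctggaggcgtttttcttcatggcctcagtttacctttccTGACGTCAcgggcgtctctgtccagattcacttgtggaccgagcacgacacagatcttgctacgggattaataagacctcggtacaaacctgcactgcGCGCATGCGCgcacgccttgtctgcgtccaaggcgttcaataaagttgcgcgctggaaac
Atp5h: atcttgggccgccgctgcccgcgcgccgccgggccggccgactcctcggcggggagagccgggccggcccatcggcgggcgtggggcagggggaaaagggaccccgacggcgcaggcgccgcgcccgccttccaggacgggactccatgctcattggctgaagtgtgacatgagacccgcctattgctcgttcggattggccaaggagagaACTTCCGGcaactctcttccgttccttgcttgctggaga

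RefSeq held a promoter for 71 of the 91 members under the symbol used here, in windows of 250 bases before to 50 after the start. Both strands were searched. NRF1 and the ETS factor GABP are known regulators of respiratory chain genes. The NRF1 motif GCGCATGCG was in 9 of the 71 windows (12.7%), against 3.46% of the windows of 10737 tested genes: Atp5g2, Atp5k, Atp5l, Cox6a1, Ndufa11, Ndufa8, Ndufaf4, Uqcr11 and Uqcrc1. The YY1 motif AAGATGGC was in 8 windows (11.3%), against 4.2%. The ETS motif CCGGAAGT was in 5 windows (7.04%), against 7.35%. The CRE motif TGACGTCA was in 4 (5.63%), against 3.17%. The GC box GGGCGG was in 31 (43.7%), against 63.8%, and TATAAA was in 7 (9.86%), against 7.27%. At least 1 of the NRF1, ETS and YY1 motifs was in 21 windows (29.6%), against 14.1% of the tested genes and 8.27% of all 27025 windows. A match is a description of letters in the window and not a bound site.

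The members were abundant. The median tested member held 1786 normalised counts as a mean over the 16 libraries, against 545 for all tested genes, and 2223 per kilobase of transcript, against 243. Per kilobase, the median level was 4446 normalised counts for the ATP synthase, 4388 for complex IV, 3230 for complex III, 2283 for complex II, 1613 for complex I and 377 for the complex I assembly factors. Atp5b, the catalytic beta subunit of the ATP synthase, was the highest member at 21989 per kilobase. Cox4i2, an isoform of complex IV subunit IV known from lung, was the lowest tested member at 32.2.

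The members took a smaller share of the library in embryoid bodies than in ES cells. In WT the share of all normalised signal was 1.154% ± 0.0217 (SD, n = 2) in ES cells, 0.859% ± 0.0803 at EB4, 0.826% ± 0.00332 at EB5 and 0.812% ± 0.0569 at EB8. In Taf4a-/- it was 1.165% ± 0.0290 in ES cells, 0.956% ± 0.0946 at EB4, 0.917% ± 0.000764 at EB5 and 0.935% ± 0.0427 at EB8. The ES libraries of both genotypes lay above the embryoid body libraries, as the heat map of the members shows. The ATP synthase took the most signal, 0.330% to 0.541% of a library, followed by complex I at 0.180% to 0.252%.

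**Figure D2:**
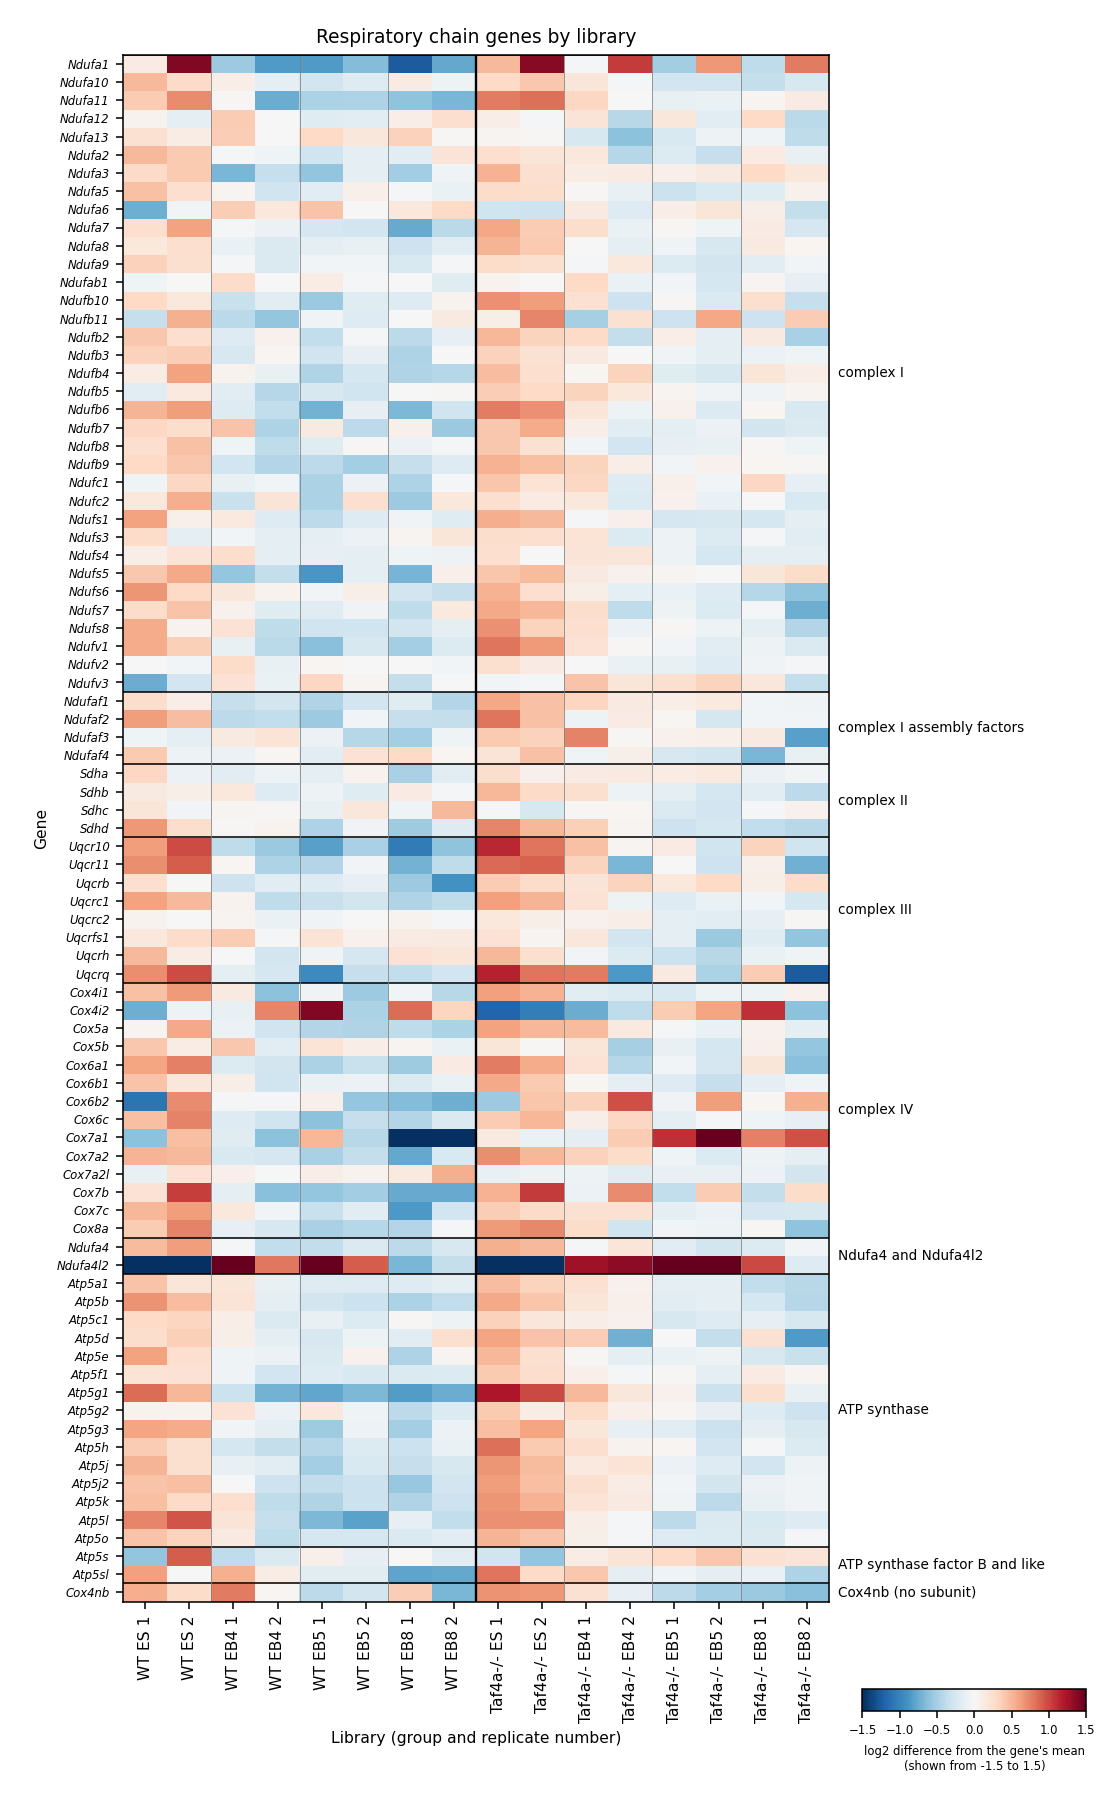
The tested members, 85 of 86 (rows, by complex), in the 16 libraries (columns, by genotype and stage); colour is the log2 difference of the normalised count from the gene's mean over all libraries, shown from -1.5 to 1.5. The ES columns of both genotypes are higher for most members of each complex, where they take 1.154% and 1.165% of the signal.

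From ES cells to EB8 the fall reached every complex in both genotypes. In WT, 45 of 86 members were lower at EB8 and 2 higher (limma, adjusted p under 0.05), where 22.8% of all tested genes were lower and 24% higher. In Taf4a-/-, 44 were lower and 1 higher, where 18% of all genes were lower and 19.7% higher. The median member changed by -0.51 on the log2 scale in WT and -0.58 in Taf4a-/-, against 0.01 and 0.02 for all tested genes. The genes lower in both genotypes numbered 32, which is 71.1% of the WT list and 72.7% of the Taf4a-/- list. Over all tested genes, 50.1% of the WT list and 63.4% of the Taf4a-/- list were lower in both. The count of members that passed in either direction depended on single libraries. It was 31 to 39 in WT when 1 library was left out, the lowest without the first EB8 library, and 16 to 33 in Taf4a-/-, with 16 without the first ES library and 20 without the second EB8 library. Quantile normalisation gave 49 lower in WT and 26 in Taf4a-/-, with a median in Taf4a-/- of -0.33 against -0.07 for all genes, and it moved the change of 19 of the Taf4a-/- members called by over 1.5 times. These included Cox5a (-0.310), Uqcrc1 (-0.318), Ndufa4 (-0.372) and Cox6b1 (-0.344), which then no longer passed in Taf4a-/- (limma, adjusted p 0.0725 to 0.229).

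**Figure D3:**
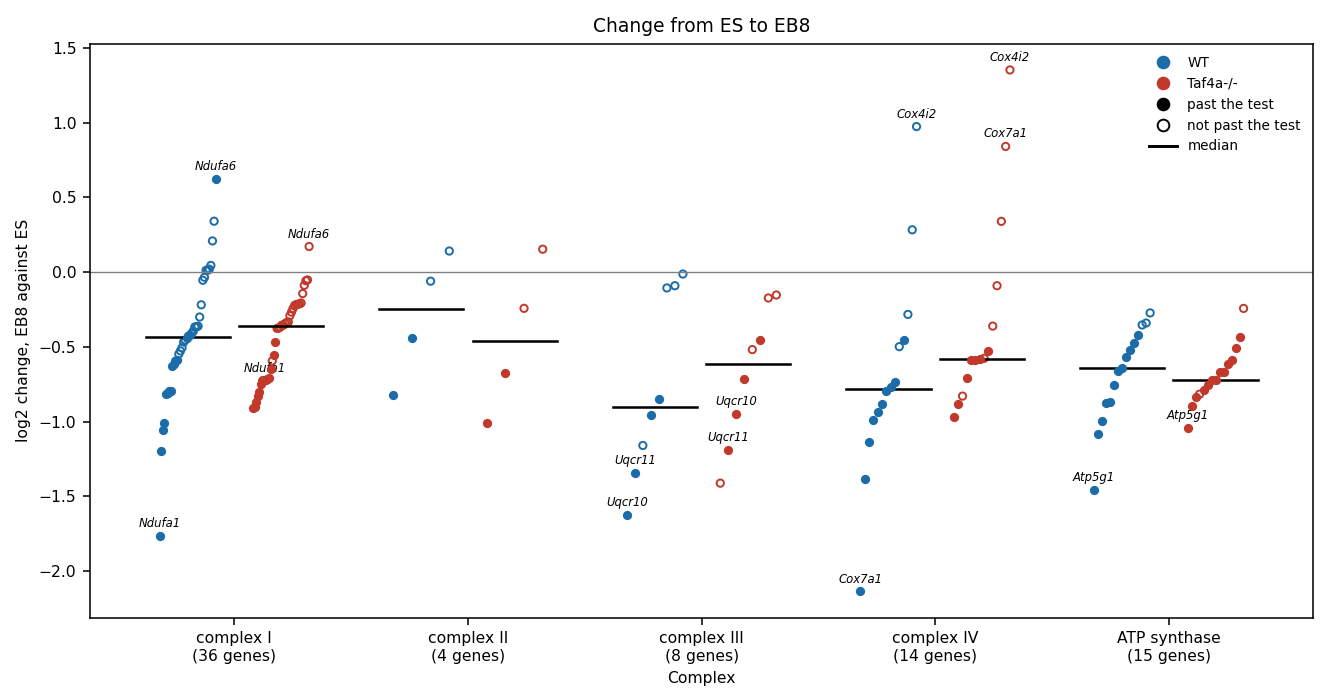
Log2 change from ES cells to EB8 for each tested subunit of the 5 complexes, WT in blue and Taf4a-/- in red; filled points passed the test (limma, adjusted p under 0.05) and the line is the median of the complex. Medians lie below 0 in each complex and genotype, at -0.64 and -0.72 for the ATP synthase and -0.43 and -0.36 for complex I.

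The ATP synthase had the largest share of genes called among the 5 complexes. In WT 12 of its 15 tested genes were lower at EB8 (median log2 change -0.64), and in Taf4a-/- 13 of 15 (median -0.72), and the fitted change was below 0 for all 15 in both. Atp5b held 65106 and 56428 normalised counts in WT ES cells and 29235 and 31558 at EB8. In Taf4a-/- it held 60287 and 54484 in ES cells and 33953 and 30418 at EB8. Within each genotype the ES and EB8 libraries did not overlap, and the log2 change was -0.997 ± 0.15 (SE) in WT and -0.83 ± 0.15 in Taf4a-/-, with adjusted p (limma) of 0.000214 and 0.00116. Atp5a1, the alpha subunit, changed by -0.47 in WT and -0.79 in Taf4a-/-, and both passed. Atp5c1, the gamma subunit of the central stalk, passed in Taf4a-/- at -0.44 (adjusted p = 0.0223). These high ATP synthase genes depended on the scaling: with quantile normalisation the Taf4a-/- change was -0.34 for Atp5b, -0.25 for Atp5a1 and 0.002 for Atp5c1, none of which passed, and in WT it was -0.59 for Atp5b, which passed, and -0.13 for Atp5a1, which did not. The largest fall of the complex was that of Atp5g1, one of the genes for subunit c, at -1.46 ± 0.21 in WT and -1.04 ± 0.21 in Taf4a-/-.

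In complex IV, 10 of 14 genes were lower in WT (median -0.78) and 7 of 14 in Taf4a-/- (median -0.58). Cox8a, the ubiquitous isoform of subunit VIII, held 4480.8 and 5789.9 normalised counts in WT ES cells and 2541.3 and 3393.4 at EB8. In Taf4a-/- it held 5356.1 and 5666.3 in ES cells and 3485.9 and 2276.4 at EB8. The log2 changes were -0.79 and -0.97, with adjusted p of 0.0148 and 0.0068. Cox5a fell in both, by -0.73 and -0.59, while its partner Cox5b passed in neither. Cox7b, an X-linked subunit, changed by -1.38 in WT (adjusted p = 0.00714), with 4365.2 and 7709.7 in ES cells and 2231.5 and 2220.3 at EB8. The second WT ES library is the one whose X chromosome median was raised.

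In complex III, 4 of 8 genes were lower in each genotype, with medians of -0.91 and -0.62, and 3 of them, Uqcr10, Uqcr11 and Uqcrc1, in both. Uqcr10, a small subunit, held 2362.8 and 3033.7 normalised counts in WT ES cells and 739.3 and 1013.2 at EB8, and 3357.9 and 2679.5 in Taf4a-/- ES cells against 1930.8 and 1251.7 at EB8. Its log2 change was -1.63 ± 0.26 in WT (adjusted p = 0.000368) and -0.95 ± 0.26 in Taf4a-/- (adjusted p = 0.0137). Uqcrc1, a core subunit, held 8258.9 and 7639.6 in WT ES cells and 3983.1 and 4189.6 at EB8, against 8343.8 and 7713.2 and then 5288.0 and 4530.5 in Taf4a-/-. It fell by -0.96 and -0.71. The other core subunits Uqcrc2 and Uqcrfs1, the Rieske iron-sulfur protein, passed in neither genotype. Uqcr11 passed in both, and in Taf4a-/- its -1.19 kept its call in 1 of 4 fits that left out a library (adjusted p 0.0608 to 0.139 in the others).

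Complex I had the smallest share of genes called lower among the 5 complexes, with 13 of 36 in WT (median -0.43) and 12 of 36 in Taf4a-/- (median -0.36). The fitted change was below 0 for 29 of its 36 genes in WT and 35 in Taf4a-/-. Ndufv1, which binds NADH, held 4030.2 and 3508.8 normalised counts in WT ES cells and 1922.8 and 2383.3 at EB8, and 4782.5 and 4265.4 against 2598.6 and 2362.7 in Taf4a-/-. It fell by 0.81 and 0.87 on the log2 scale, with adjusted p of 0.00295 for both. Among other core subunits, Ndufs1 (-0.71), Ndufs7 (-0.91) and Ndufs8 (-0.81) passed in Taf4a-/- and not in WT, while Ndufs3 and Ndufv2 passed in neither. No test of the difference between genotypes called any of them. The gene with the largest fall in WT was Ndufa1, at -1.76 ± 0.54 (adjusted p = 0.0173), and this call was lost without the second WT ES library or the first WT EB8 library (adjusted p 0.098 to 0.158). Ndufa6 was the 1 subunit that passed upwards, from 954.8 and 1542.7 in WT ES cells to 1782.0 and 1964.0 at EB8 (log2 change 0.62, adjusted p = 0.0488), and it kept that call in 5 of 13 settings and 1 of 4 fits without a library.

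In complex II, 2 of 4 genes were lower in each genotype, with medians of -0.25 and -0.46. Sdhd, a membrane anchor of the complex, held 4914.9 and 3775.1 normalised counts in WT ES cells and 2162.2 and 2749.6 at EB8, against 5225.8 and 4419.8 and then 2422.4 and 2360.6 in Taf4a-/-. It fell by 0.82 in WT (adjusted p = 0.00411) and by 1.01 in Taf4a-/- (adjusted p = 0.00178). The flavoprotein Sdha passed in WT alone (-0.44, adjusted p = 0.0367) and the iron-sulfur subunit Sdhb in Taf4a-/- alone (-0.68, adjusted p = 0.0077), with no called difference between the genotypes. Sdhc passed in neither. Among the 4 complex I assembly factors, 2 were lower in WT and 3 in Taf4a-/-. Cox4nb, which is no subunit, was lower in Taf4a-/- (-1.26, adjusted p = 0.00644).

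Part of this fall was already measured at EB4, before retinoic acid, in a comparison chosen after the data were seen. The step spans ES and embryoid body libraries, whose depth and possible run difference cannot be told apart from stage. In WT, 24 members were lower at EB4 and 1 higher, where 7.57% of all tested genes were lower and 8.98% higher, with a median of -0.42. The 25 calls became 5 without the second WT EB4 library and 0 when the compared groups alone were fitted. In Taf4a-/- no member was lower and 1 was higher, where 0.992% of all genes were lower and 2.51% higher, with a median of -0.35. At an unadjusted p under 0.05, 31 members (36.0%) and 9.69% of all genes were lower, and DESeq2 called 12 members (14.0%) and 4.1% of all genes lower. With the replicate number as a block within each genotype, an alternative added after the data were seen, 10 members were lower. Whether the genotypes differed in this step was not tested. From EB4 to EB8 the median member changed by -0.12 in WT and -0.21 in Taf4a-/-. In WT, 5 members were lower and 0 higher (all genes 12.2% and 15%): Cox7a1 (-1.82), Atp5sl (-1.10), Cox7c (-0.63), Uqcrb (-0.48) and Atp5b (-0.45). The Cox7a1 call was lost without the first WT EB4 library or the second WT EB8 library (adjusted p 0.0873 to 0.0911), and without the former none of the 5 passed. In Taf4a-/-, 3 were lower and 0 higher (all genes 8.67% and 9.86%): Sdhd (-0.59), Atp5a1 (-0.55) and Atp5b (-0.47), each lost when any of the 4 libraries was left out. With quantile normalisation Atp5a1 changed by -0.0338 (adjusted p = 0.877) and Atp5b by -0.0075 (adjusted p = 0.977). The difference between genotypes in the EB4 to EB8 change passed for 0 members (all genes 1.71% lower and 1.04% higher), with 2 members (2.33%, against 16.5% of all genes) at an unadjusted p under 0.05, 0 by edgeR and 1 by DESeq2.

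Knockout against WT was then compared within each stage. In ES cells no member passed by limma, and neither did any of the 16124 tested genes (0% higher and 0% lower). At an unadjusted p under 0.05 there were 1 member (1.16%) and 1846 genes (11.4%). DESeq2 on the recovered reads called 476 genes and 0 members, and edgeR 0 of either. The median member differed by 0.09.

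At EB4, 2 members were higher in Taf4a-/- and none lower, where 2.75% of all tested genes were higher and 3.37% lower. Atp5g1 held 1103.6 and 843.9 normalised counts in the WT libraries, against 1941.6 and 1558.2 in those of Taf4a-/- (log2 difference 0.85 ± 0.21, adjusted p = 0.0377). Ndufb9, an accessory subunit of complex I, held 1814.9 and 1637.4 in WT and 2792.1 and 2369.8 in Taf4a-/- (0.58 ± 0.14, adjusted p = 0.0343). The groups did not overlap for either gene, but both calls were lost when any library was left out, with adjusted p of 0.0575 to 0.179 and 0.0733 to 0.144. They were also lost with no filter on low genes and when the compared groups alone were fitted. At EB5 no member passed (all genes 2.17% higher and 2.17% lower), 9 members (10.5%) had an unadjusted p under 0.05, against 20.7% of all genes, edgeR called 0 members and DESeq2 called 3 (3.49%), against 10.7% of all genes in either direction. Cox7a1 was nearest, with 208.0 and 109.8 in WT and 316.7 and 705.9 in Taf4a-/- (1.64, adjusted p = 0.0694).

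At EB8, 5 members were higher in Taf4a-/- and 1 lower. Of all tested genes 10.4% were higher and 12.5% lower, so the members called, 5 and 1 of 86, were a smaller share than the background in both directions. Upper-quartile rescaling and quantile normalisation called 13 and 16 members, all of them higher. Under these scalings the members called were 15.1% and 18.6% higher, against 14.1% and 13.7% of all tested genes, and 0% lower, against 10.0% and 11.5%, so the share higher was not below the background there. The count was 3 without the first WT library and 2 without the first Taf4a-/- library. In the fit as described, the median member differed by 0.06, against -0.03 for all genes. The plot of the knockout against WT at each stage shows the few genes that stand apart from the rest of their complex.

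**Figure D4:**
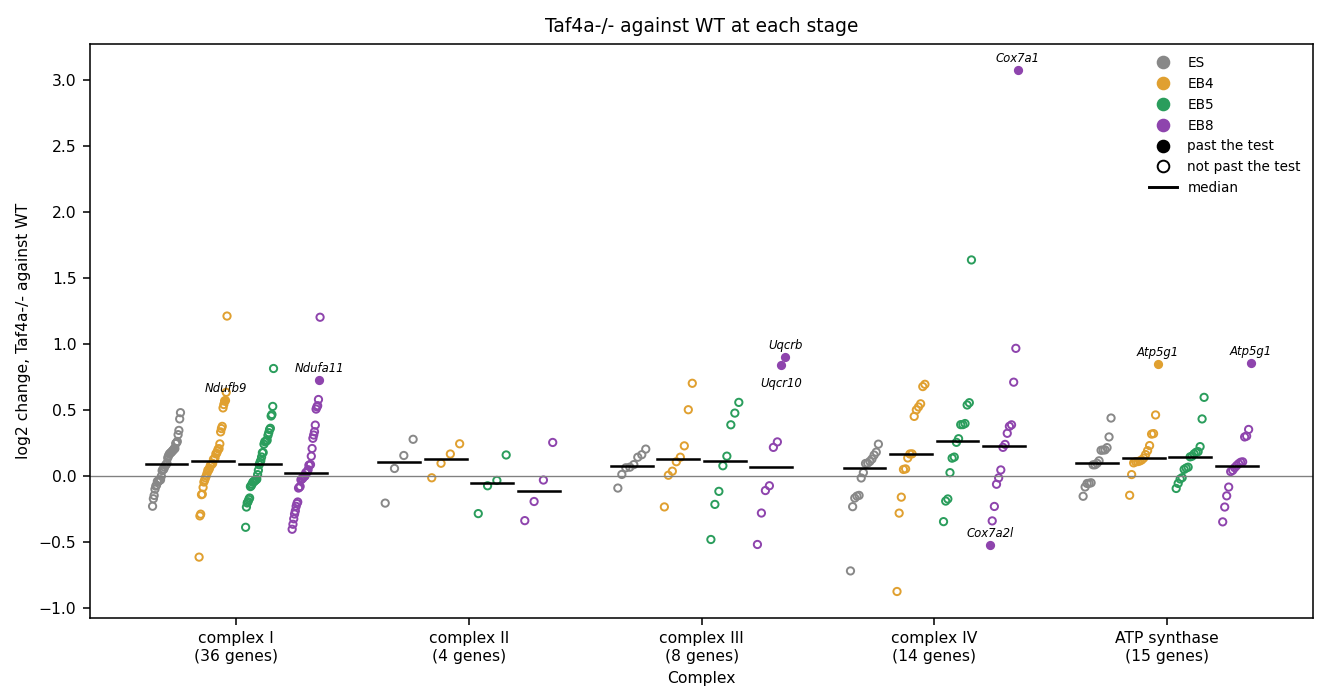
Log2 difference of Taf4a-/- from WT for each tested subunit of the 5 complexes at ES, EB4, EB5 and EB8; filled points passed the test (limma, adjusted p under 0.05) and the lines are medians. Cox7a1 at EB8, 3.08 above WT, lies farthest from 0 of the points that passed.

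Cox7a1, the isoform of complex IV subunit VIIa known from heart and skeletal muscle (ENSMUSG00000074218, mm9 chr7:30969190-30971047), differed most. At EB8 it held 35.7 and 26.5 normalised counts in the WT libraries, against 249.0 and 286.5 in those of Taf4a-/-, which is 31.1 ± 6.53 against 268 ± 26.6 (SD, n = 2). The groups did not overlap, and the 8.44-fold difference (log2 3.08 ± 0.47, adjusted p = 0.000793) kept its call in all 12 settings tried and without any 1 library (log2 2.87 to 3.29). In ES cells the groups overlapped, with 95.6 and 200.9 in WT and 161.0 and 137.2 in Taf4a-/-. The group means in ES cells and at EB8 were 148 and 31.1 in WT, a fall that passed, and 149 and 268 in Taf4a-/-, where the change of 0.84 did not pass (adjusted p = 0.178). The difference between those changes was 2.98 ± 0.66 (adjusted p = 0.0206), the 1 member called in that test, where 3.85% of all genes were higher and 3.44% lower. This call was lost in 6 of 8 fits that left out a library, those without the second WT ES, the second WT EB8 and any 1 Taf4a-/- ES or EB8 library, with adjusted p up to 0.0751. The 3 tested muscle markers were, as a sum, at 147 to 340 in WT EB8 and 70.7 to 83.1 in Taf4a-/- EB8, and Ckm and Myl2 were listed at 0 in both WT EB8 libraries. The part of cell type in the Cox7a1 difference was not tested.

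Complex III gave 2 of the members higher at EB8. Uqcrb (mm9 chr13:67001553-67006314), a small subunit of the complex, held 1079.5 and 837.5 normalised counts in the WT libraries, against 1667.0 and 1903.6 in those of Taf4a-/-. The groups did not overlap, and the 1.87-fold difference (log2 0.91 ± 0.17, adjusted p = 0.00239) passed in all 12 settings and without any 1 library. Uqcr10 (mm9 chr11:4601976-4604345) held 739.3 and 1013.2 in WT and 1930.8 and 1251.7 in Taf4a-/- (log2 0.84 ± 0.26, adjusted p = 0.0358). It lost its call without the first WT library (adjusted p = 0.22) or the first Taf4a-/- library (0.263), with no filter (0.0543) and with the compared groups alone (0.0879), and it lies on chromosome 11, whose median was raised in the latter. Uqcrb has a copy elsewhere in the genome with at least 95% identity, so reads could be split between them.

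Atp5g1 (mm9 chr11:95930166-95936984) held 775.0 and 823.7 normalised counts in WT EB8 and 1636.4 and 1278.3 in Taf4a-/- (log2 0.86 ± 0.21, adjusted p = 0.0125). It passed in 11 of 11 settings but in 1 of 4 fits without a library, with 0.0671, 0.0534 and 0.104 without the first WT, the second WT and the first Taf4a-/- library. It also has a copy of at least 99% identity. The chromosome 11 median at EB8 was 0.284 in the first Taf4a-/- library and -0.0616 in the second, against -0.078 and -0.104 in the WT libraries. The part of this level in the Atp5g1 difference was not tested. Ndufa11, an accessory subunit of complex I (mm9 chr17:56857185-56863671), held 812.8 and 766.6 in WT and 1270.3 and 1348.6 in Taf4a-/- (log2 0.73 ± 0.22, adjusted p = 0.0324), and lost its call without any 1 library (0.0917 to 0.136). With the genes of chromosomes 8, 11, X and Y left out, Atp5g1 and Uqcr10 were no longer tested. In that fit 4 members were called at EB8, 3 higher and 1 lower. The genes that stayed kept their values, so this fit cannot test the part of the chromosome 11 level.

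Cox7a2l, which is known to link complexes III and IV into supercomplexes (mm9 chr17:83901259-83913673), was the 1 member lower at EB8. It held 1934.3 and 2559.1 normalised counts in the WT libraries, against 1656.5 and 1456.2 in those of Taf4a-/- (log2 -0.52 ± 0.17, adjusted p = 0.0411). The call passed in 8 of 12 settings and was lost with upper-quartile rescaling (0.127), quantile normalisation (0.102), no filter (0.0594) and the compared groups alone (0.128). It was also lost without the second WT (0.298), the first Taf4a-/- (0.0758) or the second Taf4a-/- library (0.199). Cox7a2l has a copy of at least 95% identity.

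The isoform sets, fixed by name, showed how subunits with alternative genes were supplied, and the plot of isoforms gives each library. For subunit VIIa, Cox7a2, the ubiquitous form, held 4008.4 and 3928.2 normalised counts in WT ES cells and 1657.1 and 2406.6 at EB8 (log2 -0.99, adjusted p = 0.000523). In Taf4a-/- it held 4540.9 and 3968.8 and then 2664.0 and 2531.0 (-0.71, adjusted p = 0.00609). Per kilobase, Cox7a2 at EB8 in Taf4a-/- was at 3445 and Cox7a1 at 736, while Cox7a1 was at 407 in WT ES cells.

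**Figure D5:**
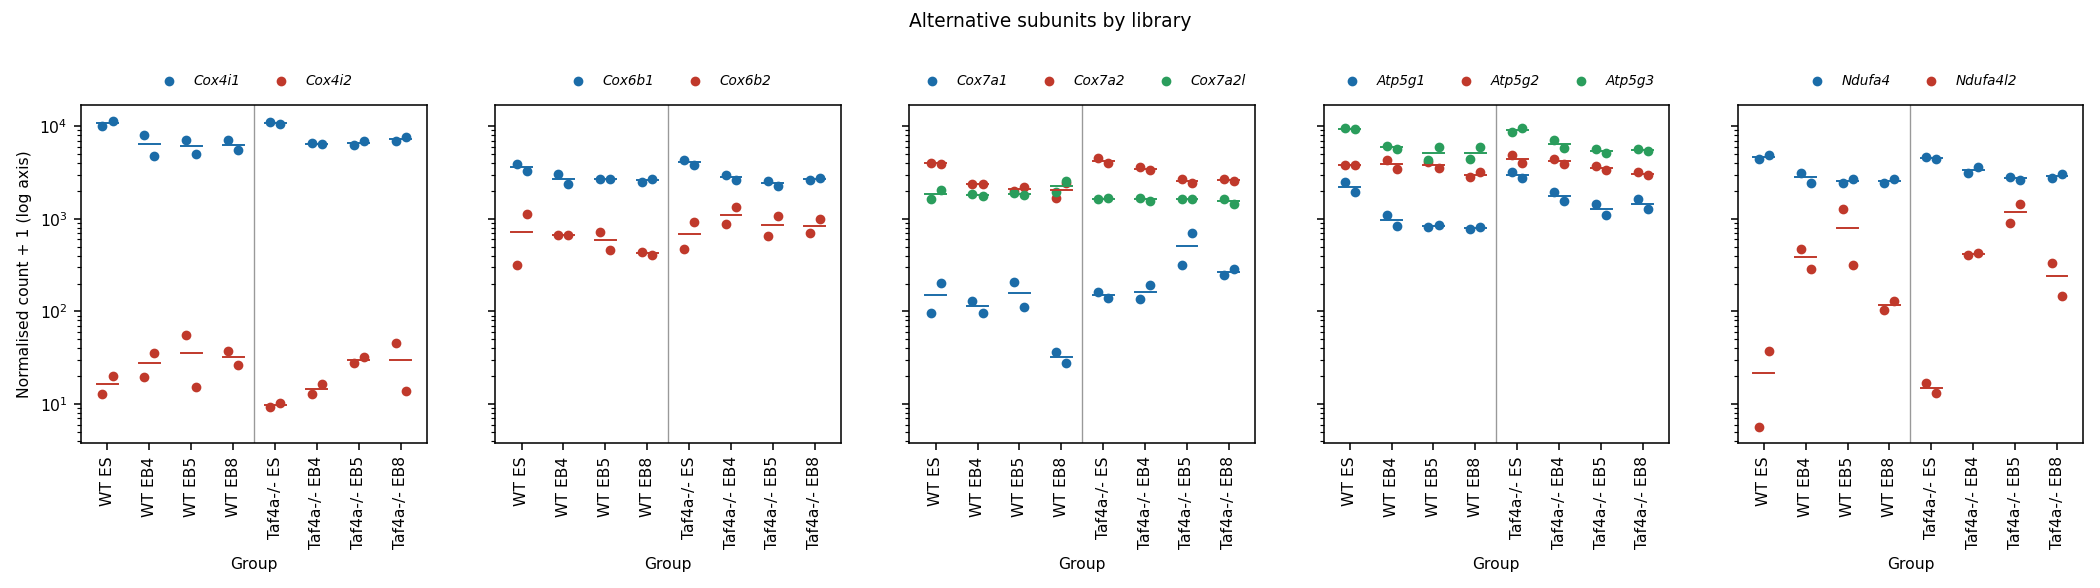
Normalised count + 1 (log axis) of each gene in 5 isoform sets across the stages, WT and Taf4a-/-; points are libraries and lines are group means. Cox7a1 falls to 31.1 in WT EB8 and stands at 268 in Taf4a-/- EB8, while Ndufa4l2 rises from ES cells to embryoid bodies in both genotypes.

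Subunit c of the ATP synthase has 3 genes with the same mature product. Per kilobase of transcript, Atp5g3 was at 13204 normalised counts in WT ES cells and 7261 at EB8, Atp5g2 at 5894 and 4622, and Atp5g1 at 3708 and 1341. In Taf4a-/- the values were 12778 and 7756 for Atp5g3, 6805 and 4765 for Atp5g2, and 5017 and 2445 for Atp5g1. The measured order was thus the same in both genotypes and stages. Atp5g1 and Atp5g2 have nearly identical copies elsewhere in the genome, so reads could be split between the loci. The part of these copies in the order was not tested. Atp5g3 fell in both genotypes and Atp5g2 in Taf4a-/- (-0.51, adjusted p = 0.0255). With quantile normalisation the Taf4a-/- changes were -0.313 for Atp5g3 and -0.243 for Atp5g2, and neither passed (limma, adjusted p of 0.209 and 0.25). Only Atp5g1 of the 3 differed between genotypes by the test at EB4 and at EB8.

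Ndufa4l2, a paralogue of Ndufa4 known as a target of the hypoxia factor HIF1, was the member that rose most. It held 4.6 and 36.7 normalised counts in WT ES cells, 473.5 and 289.5 at EB4, 1269.4 and 313.0 at EB5 and 102.9 and 129.2 at EB8. In Taf4a-/- it held 15.8 and 12.2, then 404.2 and 422.4, 906.4 and 1442.9, and 332.3 and 144.9. Every embryoid body library was above every ES library. The EB8 against ES change was 3.01 ± 0.80 in WT (adjusted p = 0.00846, lost without the first WT ES library at 0.0917) and 3.89 ± 0.80 in Taf4a-/- (adjusted p = 0.00271). EB4 against ES gave 4.68 in WT and 4.80 in Taf4a-/-. The WT call was lost when the compared groups alone were fitted (limma, adjusted p = 0.0934). The Taf4a-/- call was lost when any library was left out. Over all settings and left-out libraries the change was 3.30 to 6.06 in WT and 4.47 to 4.98 in Taf4a-/-. Ndufa4 fell over the same interval, by 0.87 and 0.64 to EB8, from 4416.1 and 4916.1 to 2409.0 and 2685.1 in WT. The hypoxia-responsive list, which does not hold Ndufa4l2, had 10 of 16 tested genes higher and 1 lower at EB8 against ES in WT, and 9 higher in Taf4a-/-. Of all tested genes, 24% and 19.7% were higher. Its summed level was 37756 to 41283 in WT ES libraries and 63244 to 105772 at EB8, against 34162 to 45442 and 52030 to 121839 in Taf4a-/-. At EB5 the sum was 138423 to 146143 in WT and 122039 to 148739 in Taf4a-/-. Whether hypoxia had a part in these changes was not tested.

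The other alternative forms gave no call between genotypes in the fit over all groups. Cox4i1 held 9946.3 and 11500 normalised counts in WT ES cells and 7146.0 and 5521.5 at EB8 (-0.77, adjusted p = 0.0166), and Cox4i2 held 8.3 to 54.6 in any library. Cox6b2, the testis form of subunit VIb, held 436.8 and 409.7 in WT EB8 and 697.4 and 986.4 in Taf4a-/- EB8. These groups did not overlap, but the difference of 0.97 did not pass (adjusted p = 0.191, or 0.0471 when the compared groups alone were fitted). Cox6b1, the somatic form, fell in both genotypes, by 0.45 and 0.59 to EB8. Cox6a1 also fell in both (-0.88 and -0.88), but by less without 1 library. The change was -0.555 in WT without the first EB8 library and -0.480 in Taf4a-/- without the second EB8 library.

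The 2 libraries of a group differed for some members. In Taf4a-/- at EB8 the second library was below the first for Uqcrq, at 596.5 against 1837.9 normalised counts, and for Atp5d, at 1798.1 against 3793.0. At EB4 the second and first Taf4a-/- libraries were at 774.6 and 2422.9 for Uqcrq and 1958.9 and 4167.1 for Atp5d. Across the 86 members, the log2 difference of the second from the first library had a Pearson r of -0.542 with GC content at EB8 and -0.451 at EB4. Over 14680 tested genes it was -0.364 and -0.293. Genes share their library and are not replicates, so this describes these libraries. The part of base composition in the comparisons was not tested.

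Reads could also be shared with other loci. Of 90 members with a protein-coding transcript, 19 had another locus with at least 95% identity over at least 50% of the transcript, and for Atp5g1, Atp5g2, Atp5l, Cox5b, Cox7c and Ndufs5 the identity was at least 99%. The exons of 19 members overlapped those of another gene, and the overlap reached 20% of the exon length in Ndufb6 (39%), Cox5a (38.7%) and Ndufa13 (30.2%). The values of these genes are uncertain to that extent.

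Other genes of mitochondrial metabolism were read from lists chosen by name. Of all tested genes, 22.8% were lower and 24% higher from ES cells to EB8 in WT, and 18% and 19.7% in Taf4a-/-. Over that interval, 40 of 75 tested genes of the mitochondrial ribosome were lower in WT and 42 in Taf4a-/-, with none higher in either (medians -0.63 and -0.72). Of 17 genes of the tricarboxylic acid cycle, 7 were lower in WT, and 6 lower and 1 higher (Suclg2) in Taf4a-/-. Of 20 regulators, 9 were lower and 1 higher in WT and 8 lower and 1 higher in Taf4a-/-. Among the regulators, Pprc1, a coactivator of the PGC-1 family, fell by 1.21 in WT and also passed in Taf4a-/-, Nrf1 fell by 0.49 in WT and 0.70 in Taf4a-/-, and the mitochondrial transcription factor Tfam fell by 0.48 and 0.57, while Esrrg rose in both. Of 25 assembly factors without a member's name, 6 were lower in each genotype, with 2 higher in WT (Cox19 and Oxa1l) and 1 in Taf4a-/- (Tmem70). Of 11 genes of coenzyme Q synthesis, 2 were lower in each genotype and 2 higher in WT.

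Cytochrome c carries electrons from complex III to complex IV and has 2 genes in the mouse, the somatic Cycs and the testis form Cyct. Cyct held 105.6 and 635.4 normalised counts in WT ES cells and 13.7 and 22.2 at EB8, against 110.4 and 145.1 and then 644.6 and 659.4 in Taf4a-/-. The genotypes did not overlap at EB8, and Cyct was higher in Taf4a-/- there (log2 5.15, adjusted p = 0.000624), at EB4 (4.19) and at EB5 (4.08). Cycs fell from ES cells to EB8 in both genotypes (-0.79 and -0.90), as did Cyc1 of complex III (-1.18 and -0.96). The carriers Etfa (0.62) and Etfdh (0.75), which pass electrons from fat oxidation, rose in Taf4a-/-, as did Cyct (2.36). Of the other lists at EB8, Taf4a-/- was higher for 4 of 75 mitochondrial ribosome genes, Coq3 (1.27), Etfa (0.75) and Mdh2 (0.46). It was lower for Cs (-0.99), Pdha1 (-0.90), Cox19 (-0.89) and Oxa1l (-0.56). Of all tested genes, 10.4% were higher and 12.5% lower there. Of the regulators, the pluripotency-linked receptor Esrrb was higher (4.35), and Esrrg (-3.92) and Mycn (-1.75) were lower. Of the 16 hypoxia-responsive genes, 1 was lower (Egln1, -1.04). In ES cells no gene of any of these lists passed, and neither did any of the 16124 tested genes, so this does not set the lists apart.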

How the data were processed

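Poly(A) RNA was sequenced single-end from 16 libraries, made with a kit that does not mark strand. The authors deposited a signal per gene, counts normalised by DESeq2 size factors, as 1 table. The submitters' processing notes name CASAVA 1.7 and 1.8, TopHat2 2.0.10, HTSeq 0.5.4p3 and DESeq2 1.0.19, with mapping to mm9. The annotation release and strand setting are not given in the sources used here. Values were whole multiples of 1 read in each library (100% within 0.001), so reads were recovered for edgeR 4.0.16 and DESeq2 1.42.0 as alternatives.

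Genes with a mean of at least 10 (16124) were tested with limma 3.58.1 (R 4.3.3) on log2(value + 1), with 8 group means and a fitted trend. Fold changes are on that scale, with standard errors on 8 residual and 4.27 prior degrees of freedom. The fit took the libraries as independent. The lines of a genotype were sampled at more than 1 stage, and same-numbered deviations correlated between some stages, which the standard errors leave out. P-values were adjusted by Benjamini-Hochberg over all tested genes (threshold 0.05). The test was checked on simulated data. Levels per kilobase used the shortest transcript with the longest coding sequence, and copies were found with BLAST 2.17.0. The annotation held 27603 of the identifiers.

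Members and lists were chosen with earlier results of these data known. Genes were named by isoform set, by core subunit and by largest change past the test: up to 8 a direction for the knockout at EB8 and up to 3 elsewhere. Others named were chosen after their values were seen. Alternatives were pseudocounts, filters, rescalings, the compared groups alone, replicate blocks, both count tests and each library left out. The values of 1 member are not reported here by name, although it stays in the counts and medians.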

Additional observations from a re-analysis of the deposited data

Results flagged for a closer look

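Cox7a1 was flagged because its ES to EB8 change differed between the genotypes: every EB8 library was below every ES library in WT and above in Taf4a-/-, and the difference of 2.98 on the log2 scale (2.9779) passed the test, as given above with the libraries it depends on. Further members were flagged because every Taf4a-/- library was above WT at 1 stage and below at another. The log2 differences of Taf4a-/- from WT were 0.0528 at EB5 and -0.2325 at EB8 for Atp5a1, 0.2536 in ES cells and -0.1172 at EB5 for Cox4nb, and 0.2098 in ES cells and -0.1639 at EB5 for Ndufv2. They were 0.2805 in ES cells and -0.3355 at EB8 for Sdhb. For Uqcrc2 they were 0.0888 in ES cells, 0.1106 at EB4 and -0.1138 at EB5. Cox7c was at -0.2297 in ES cells and at 0.1693, 0.1377 and 0.326 at EB4, EB5 and EB8. None of these single differences passed. The differences that involve EB5 were not tested, and the tests of the ES to EB8 and EB4 to EB8 changes called none of these 6 genes. No group had the 4 libraries needed to look for a library far from the others.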

How the results depend on the processing

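The counts of members called moved as follows, with 1 library left out given as a range. For Taf4a-/- against WT at EB4 (2 called), no filter and the compared groups only gave 0, DESeq2 8, and leaving out a library 0 to 1. At EB5 (0), quantile normalisation gave 1, DESeq2 3, and leaving out a library 0 to 1. At EB8 (6, 5 higher and 1 lower), upper-quartile rescaling gave 13 and quantile normalisation 16, all higher, and leaving out a library 2 to 6. Upper-quartile rescaling moved the median of all genes there to 0.111, with the members at 0.200, and to 0.137 for EB8 against ES in Taf4a-/-. For EB8 against ES, the compared groups only gave 31 in WT (47) and quantile normalisation 27 in Taf4a-/- (45), with 31 to 39 and 16 to 33 without a library. For the difference in that change (1), no filter, both rescalings and DESeq2 gave 2, and leaving out a library 0 to 2. For EB8 against EB4 in WT (5), no filter and the compared groups only gave 3, DESeq2 8, and leaving out a library 0 to 6. In Taf4a-/- (3), no filter and both rescalings gave 1, the compared groups only 0, DESeq2 7, and leaving out a library 0 to 1. For the difference in that change (0), DESeq2 gave 1 and leaving out a library 0 to 0. For EB4 against ES in WT (25), the compared groups only gave 0, DESeq2 38, and leaving out a library 5 to 18. In Taf4a-/- (1), a mean of at least 50 gave 2, DESeq2 13, the exclusion of chromosomes 8, 11, X and Y 2, and leaving out a library 0 to 0. The share at Taf4a-/- EB5 (0.917%) became 0.918% over genes with a mean of at least 10 and 0.920% at 50. Cox7a2 passed between genotypes at EB8 with upper-quartile rescaling (adjusted p = 0.0338, limma) and quantile normalisation (0.0321). No result reversed except the Taf4a-/- change of Atp5c1 from ES to EB8, at 0.002 with quantile normalisation, and the causes were not tested.

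The correlation of same-numbered deviations between genotypes was 0.335 in ES cells and -0.209 to -0.058 in embryoid bodies. Whether numbers pair WT with Taf4a-/- was not settled by these values. Between stages in WT the correlation was -0.048 for ES with EB8, -0.076 for ES with EB4 and 0.523 for EB4 with EB8. In Taf4a-/- it was 0.241 to 0.389. Chromosome medians recurred by number across the Taf4a-/- stages and the WT embryoid body stages. This hints that numbers follow a line there, which the labels do not state. From WT ES cells to WT embryoid bodies they did not recur. The X median was 0.47 in the second WT ES library and -0.25 to -0.16 in the second WT embryoid body libraries. A block by number in WT may thus not follow the same line from ES cells on. The replicate block gave 4 calls at EB4, 8 at EB8 and 2 for EB4 against ES in Taf4a-/-. With the Taf4a-/- numbers exchanged, the block gave 4, 7 and 2. A replicate block within each genotype, also added after seeing the data, gave 54 calls in WT and 53 in Taf4a-/- for EB8 against ES, with each earlier call kept, 2 for the difference, 7 and 5 for EB8 against EB4, 1 for its difference, and 34 and 11 for EB4 against ES. The 2 libraries of each group and the depth of the low isoforms limit what could be detected.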
